A study of Mus musculus with 10 samples.

Results

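The peaks described here are stretches of chromatin that lost accessibility to a like degree in intestinal innate lymphoid cells (ILCs) whenever RORgt was deleted, whether RORgt was deleted alone, together with T-bet or together with RORa. They were chosen from the deposited ATAC-seq values on the log2 scale. The lowest of the 3 Control values had to exceed the highest of the 7 knockout values, the Control mean had to lie at least 1 above the mean of the 3 knockout group means, and those 3 means had to span less than 0.8. This rule took 1482 of the 36251 peaks outside chromosome Y, or 4.09% (36262 peaks in all), and they are called the commonly lowered peaks below. The choice used every library, so the differences from Control are descriptions and carry no test.

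ATAC-seq marks open chromatin by the places where the Tn5 transposase can insert adapters. The cells were ILCs sorted from lamina propria of the small intestine of C57BL/6 mice kept on a tamoxifen diet for some weeks. All mice carried Id2creERT2+, a tamoxifen-inducible Cre driven from Id2, which ILCs share, and the red fluorescent reporter tdRFP+. Control mice had no floxed allele (n = 3). RORgt-KO mice had both RORgt alleles flanked by loxP (n = 2), RORgt-Tbet-KO mice had in addition Tbx21f/f (n = 2), and RORgt-RORa-KO mice had in addition Roraf/f (n = 3). A library came from 1 mouse or from 2 or 3 pooled mice, and ages were not among the details used here. Cre acts in every Id2-expressing cell of the mouse, so the alleles are not deleted in ILC3s alone.

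RORgt is a nuclear receptor that group 3 ILCs (ILC3s) need to form and to make interleukin-17 and interleukin-22. RORa is a related receptor that binds much the same DNA element and acts in ILC2s and ILC3s, and T-bet is a T-box factor of type 1 lymphocytes. Most lineage factors of lymphocytes bind enhancers, elements within introns and between genes whose accessibility differs between cell types far more than that of promoters.

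The promoters among the commonly lowered peaks included those of 3 neutrophil-attracting chemokines, Cxcl1, Cxcl2 and Cxcl3, and of Tnip3, which encodes an inhibitor of NF-kB signalling. Their sequences, chosen after the motif matches were seen, are shown with that of Ptgs2, the gene for COX-2, which held no such match. They do not stand for the other promoters of the set: 11 of its 34 promoter windows (32.4%) held the motif. Each is 300 bases long, from 250 before to 50 after the transcription start, on the gene's strand, from RefSeq (GRCm38.p6). The windows are chr5:90890995-90891294, chr5:90903649-90903948, chr5:90785851-90786150, chr6:65590148-65590447 and chr1:150099781-150100080, all on the plus strand. Capitals mark matches, on either strand, to an NF-kB motif of GGGA, 4 bases of any kind and CC.
Cxcl1: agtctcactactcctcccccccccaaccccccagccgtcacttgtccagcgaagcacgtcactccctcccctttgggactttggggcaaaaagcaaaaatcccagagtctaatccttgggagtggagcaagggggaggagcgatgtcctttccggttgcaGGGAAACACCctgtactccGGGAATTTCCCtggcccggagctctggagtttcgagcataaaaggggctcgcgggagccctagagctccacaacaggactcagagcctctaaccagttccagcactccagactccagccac
Cxcl2: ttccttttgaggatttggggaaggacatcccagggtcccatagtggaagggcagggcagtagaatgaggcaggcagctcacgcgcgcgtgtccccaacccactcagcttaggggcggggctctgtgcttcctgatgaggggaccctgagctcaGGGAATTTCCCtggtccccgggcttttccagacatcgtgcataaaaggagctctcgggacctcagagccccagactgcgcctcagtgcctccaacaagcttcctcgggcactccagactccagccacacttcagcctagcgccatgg
Cxcl3: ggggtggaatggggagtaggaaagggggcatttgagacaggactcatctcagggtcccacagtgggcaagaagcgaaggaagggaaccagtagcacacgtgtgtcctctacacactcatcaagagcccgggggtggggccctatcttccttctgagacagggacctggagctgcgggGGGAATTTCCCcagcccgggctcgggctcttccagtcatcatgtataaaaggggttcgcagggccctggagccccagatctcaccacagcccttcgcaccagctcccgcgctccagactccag
Tnip3: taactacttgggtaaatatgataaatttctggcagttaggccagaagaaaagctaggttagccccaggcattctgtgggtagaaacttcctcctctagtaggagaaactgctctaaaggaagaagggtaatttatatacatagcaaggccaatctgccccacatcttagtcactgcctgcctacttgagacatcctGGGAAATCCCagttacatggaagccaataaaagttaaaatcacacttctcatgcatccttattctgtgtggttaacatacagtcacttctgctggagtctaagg
Ptgs2: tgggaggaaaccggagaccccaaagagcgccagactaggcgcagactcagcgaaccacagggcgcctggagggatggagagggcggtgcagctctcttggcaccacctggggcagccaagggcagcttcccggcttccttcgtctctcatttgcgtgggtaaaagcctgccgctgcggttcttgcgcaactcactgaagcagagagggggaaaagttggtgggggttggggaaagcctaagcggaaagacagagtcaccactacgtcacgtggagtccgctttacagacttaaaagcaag
The 3 chemokine promoters each held the run GGGAATTTCCC, which matches the motif on both strands with an overlap of all but 1 base at either end. Counted from the transcription start, the plus-strand match began at -71 in Cxcl1, -97 in Cxcl2 and -73 in Cxcl3. Cxcl1 held a further match, GGGAAACACC, at -90, and the match in Tnip3, GGGAAATCCC, began at -54. A match is a run of letters and not a measured binding site.

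Over the 1482 commonly lowered peaks, the median Control level was 6.12 on the log2 scale. RORgt-KO stood at 4.55, RORgt-Tbet-KO at 4.41 and RORgt-RORa-KO at 4.37. Over all peaks these 4 medians were 5.95, 5.89, 5.92 and 5.94. The median peak was 1.57 lower in the knockouts (2.97-fold), the quartiles were 1.26 and 2.04, and the largest difference was 4.10 (17.1-fold). In bulk cells, fewer cells of a type that opens a peak and less opening per cell cannot be told apart.

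**Figure D1:**
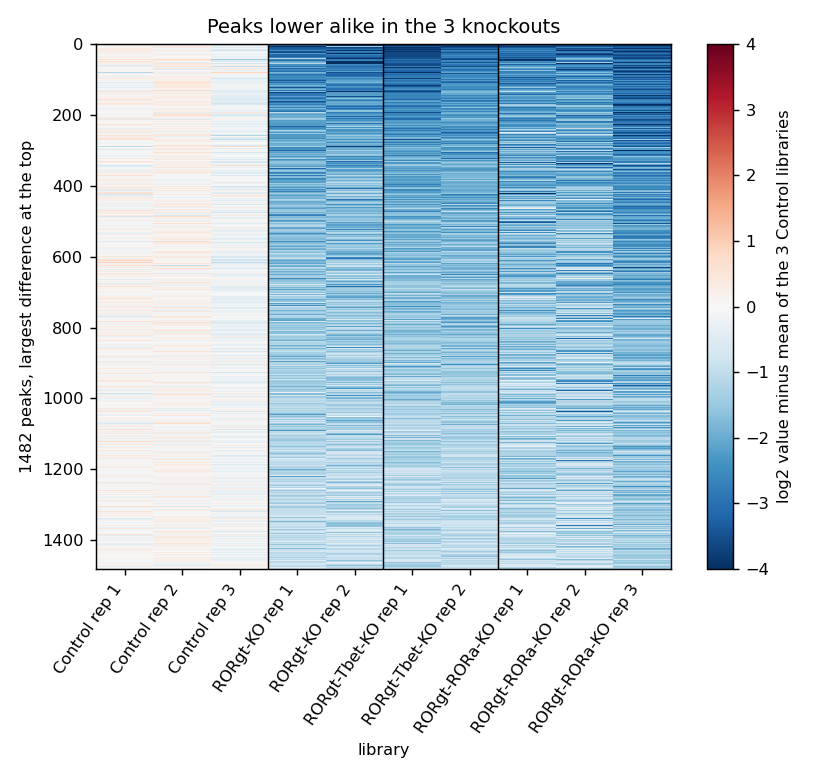
Heat map of the 1482 commonly lowered peaks (rows, sorted by difference) in the 10 libraries (columns). Colour gives the log2 value minus the mean of the 3 Control libraries. The scale ends at -4 and 4. The 7 knockout columns are blue because the rule asked for it, Control replicate 3 is the bluest Control (median 5.92), and RORgt-RORa-KO replicate 3 (4.09) is the darkest.

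The chosen peaks were lower rather than closed. The median commonly lowered peak kept 33.6% of its Control level, and 808 of the 1482 still held at least 10 reads in every knockout library. By knockout level, 924 (62.3%) lay under 4.78, the level that bounds the lowest 25% of all peaks. In Control the median of the set stood at percentile 53.8 of all peaks, and in the knockouts at percentile 17.6. A total of 7 peaks had 0 reads in any knockout library, and 0 peaks had none in all 7.

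The library medians over the set were 6.21, 6.30 and 5.92 in Control. RORgt-KO had 4.53 and 4.65, RORgt-Tbet-KO 4.37 and 4.50, RORgt-RORa-KO 4.57, 4.63 and 4.09. Control replicate 3 was the Control library nearest to the knockouts: it was the lowest Control in 947 of the 1482 peaks (63.9%), against 38.5% of all peaks. The share of a library's reads that fell in the set was 3.66%, 3.93% and 3.20% in Control and ran from 0.917% to 1.33% in the 7 knockout libraries. Reads in peaks were fewest in RORgt-RORa-KO replicate 2 (2271585) and most in RORgt-Tbet-KO replicate 2 (5047436), and Control held 3381784, 3361390 and 2518233. Control replicate 3 thus had both the fewest reads and the lowest level among the controls, while RORgt-RORa-KO replicate 2 had the fewest reads and the highest level of its group. The part of depth in these levels was not tested.

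To see the difference in a library that had no part in the choice, the rule was applied to 9 libraries and the tenth was then read. A left-out knockout library lay below all 3 controls in 93.4% (RORgt-RORa-KO replicate 2) to 99.9% (RORgt-RORa-KO replicate 3) of the peaks chosen without it, against 29.7% to 35.2% of all peaks. A left-out Control library lay above all 7 knockouts in 92.3%, 95.6% and 86.4% of the chosen peaks for replicates 1, 2 and 3, against 25.8%, 25.7% and 20.9% of all peaks. Over the 10 libraries together the share was 95.2%, against a mean of 30.1% over all peaks. The libraries it was compared with did take part in the choice, controls as high and knockouts as low. A left-out library can thus lie on that side more often than over all peaks without a difference of its own. The share over all peaks is therefore not a matched background, and no size of effect is read from the contrast. Without Control replicate 3 the rule took 1856 peaks, of which 1450 were among the 1482. Their median was 5.85 in the left-out replicate 3, 6.22 in the other controls and 4.49 in the knockouts.

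**Figure D2:**
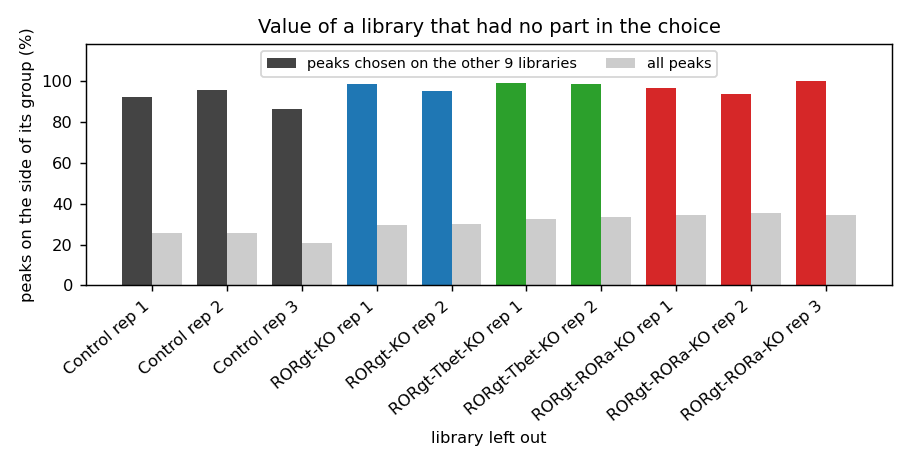
Bars give, for each library left out in turn (x axis), the percentage of peaks in which it lay on the side of its own group (y axis), below all Control libraries for a knockout or above all knockout libraries for a Control. Dark and coloured bars are peaks chosen on the other 9 libraries (86.4% to 99.9%) and grey bars are all peaks (20.9% to 35.2%). The grey bars are not a matched background, since the compared libraries took part in the choice.

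The first limit alone, no overlap between Control and knockout libraries, was met by 4413 peaks (12.2% of all). The difference of 1 left 2899 of these, and the limit on the span then set aside 1417 peaks in which the knockouts differed more from each other. Near the limit on the span, a peak in Tnik (chromosome 3, 28554915 to 28555436), with knockout means 0.80 apart, was just inside and one 33171 bp from Slc23a2 (chromosome 2, 132178491 to 132178746), also 0.80 apart after rounding, was just outside. A peak in Cmip lay just inside the limit on the difference and one in Gatad2b just outside, both at 1.00. For the gap, a peak in Camk2d was the last inside and one in Coro2a the first outside, both within 0.01 of an overlap.

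In limma, fitted over all peaks at a Benjamini-Hochberg threshold of 0.05, 1082 of the 1482 were called lower in RORgt-KO, 1220 in RORgt-Tbet-KO and 1394 in RORgt-RORa-KO, beside 7.12%, 11.3% and 16.1% of all peaks. These 3 contrasts share the Control libraries and were used by the rule, so nothing is read from the counts. The first count was 555 without RORgt-KO replicate 1 (3.27% of all peaks) and 616 without replicate 2 (3.41%). The second was 701 without RORgt-Tbet-KO replicate 1 (4.97%) and 765 without replicate 2 (5.51%), so calls were fewer over all peaks too. All 3 contrasts were called for 997 of the 1482 (67.3%, beside 5.1% of all peaks) and none for 51 (3.44%, beside 80.2% of all peaks).

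**Figure D3:**
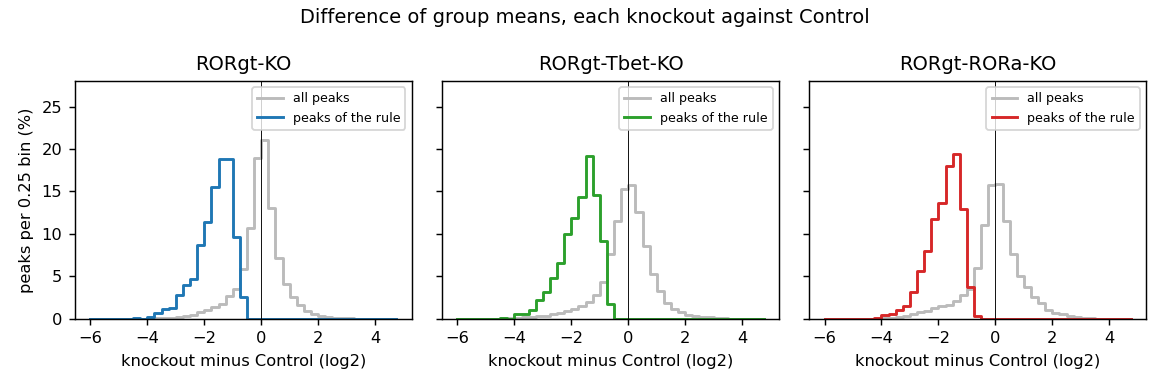
Share of peaks (y axis, percent per 0.25 bin) by knockout mean minus Control mean on the log2 scale (x axis) in 3 panels, 1 per knockout group. The commonly lowered peaks (coloured) have medians of -1.50, -1.58 and -1.68 from left to right, and all peaks (grey) on 0.02, 0.01 and 0.02.

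Within the span that the rule allows, the 3 knockouts were not in an even order. RORgt-RORa-KO had the lowest mean of the 3 in 691 commonly lowered peaks (46.6%), against 34.5% of all peaks. RORgt-Tbet-KO was lowest in 499 (33.7%, against 34% of all) and RORgt-KO in 292 (19.7%, against 31.4%). The rule can shape this order, since all 3 RORgt-RORa-KO libraries, against 2 in each other knockout group, had to lie below Control. A group with more libraries or a larger SD needs a lower mean to pass. The shares over all peaks carry no such limit, so nothing is read from the order. The sizes were small: the median difference from RORgt-KO was -0.09 in RORgt-Tbet-KO and -0.19 in RORgt-RORa-KO, where the median SE of a peak in limma was 0.45 and 0.41. The median span was 0.49. The median SD between replicates was 0.30 for both Control and RORgt-KO. It was lower in RORgt-Tbet-KO (0.24) and higher in RORgt-RORa-KO (0.48).

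The commonly lowered peaks lay away from gene ends. Only 80 of 1482 (5.40%, 95% Wilson interval 4.36 to 6.67) were within 1 kb of an end of a protein-coding gene, where 29.9% of all peaks were. Inside genes lay 700 (47.2%, against 39.1% of all), between genes within 50 kb of one lay 388 (26.2%, against 20.9%), and over 50 kb from any lay 314 (21.2%, interval 19.2 to 23.3, against 10.1%). The intervals cover counting error only, and neighbouring peaks are not independent. The 1123 peaks of the mirror rule, higher alike in the knockouts, held 7.21% at gene ends (interval 5.84 to 8.88), and 57.8% lay inside genes and 8.99% (interval 7.46 to 10.8) over 50 kb away. Of the 1417 peaks lower with a wider knockout span, 4.59% were at gene ends (interval 3.62 to 5.80) and 26.3% over 50 kb away (interval 24.1 to 28.7), and their median length was 365 bp.

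**Figure D4:**
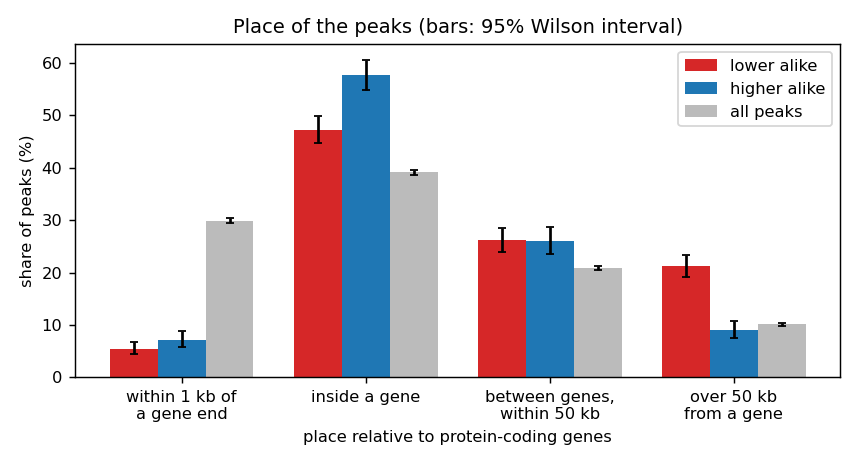
Bars give the share of peaks (y axis, percent) by place relative to protein-coding genes (x axis) for the commonly lowered peaks (red), the peaks higher alike in the knockouts (blue) and all peaks (grey), with 95% Wilson intervals as error bars. At gene ends the shares are 5.40%, 7.21% and 29.9%, and over 50 kb from a gene 21.2%, 8.99% and 10.1%.

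The shares at gene ends and over 50 kb from a gene differed in the same directions within each range of Control level. Among the 371 commonly lowered peaks of the highest Control levels (6.92 to 10.33), 8.63% were at gene ends and 24.5% over 50 kb from a gene, where the other 10132 peaks of that range had 55.6% and 5.79%. In the lowest range (3.63 to 5.49) the shares were 4.85% and 22.6%, against 14.6% and 12.0% of 11470 other peaks. The share inside genes in that range was 46.9%, near the 46.6% of the other peaks. The commonly lowered peaks were also shorter, with a median of 385 bp against 480 bp over all peaks, and 637 bp against 976 bp in the highest range. Peaks higher alike in the knockouts were short too, with a median of 411 bp. The commonly lowered peaks made up 2.29% of the peaks of chromosome 11 and 6.16% of those of chromosome 3, the lowest and highest shares.

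Most commonly lowered peaks, 1233, had no other commonly lowered peak next to them within 50 kb. Adjacent peaks within 50 kb of a commonly lowered peak were counted as its neighbours, 1960 in all. A pair of 2 commonly lowered peaks counts from both sides. Of the 1960 neighbours, 266 (13.6%) were commonly lowered and 29 (1.48%) were higher alike in the knockouts. Of all peaks, 4.09% were commonly lowered and 3.10% higher alike. In all, 249 peaks (16.8%) stood in unbroken runs, 102 of them runs of 2, 12 of 3 and 2 longer. The 1168 peaks with a protein-coding gene within 50 kb named 958 genes, 7.37% of the 12990 genes that any peak named, and 794 genes had 1 such peak only. The 4250 other peaks of these genes had a median difference of 0.09 (Control minus knockout; -0.02 over all peaks), and their 672 peaks at gene ends 0.12. Of these genes 90 also had a peak higher alike in the knockouts.

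The longest run, of 5 peaks, led into a cluster of CXC chemokine genes on chromosome 5, which encode small secreted proteins that draw neutrophils and other leukocytes into tissue. The region was singled out after its values were seen. Between the end of Rassf6 and the start of Mthfd2l (90640734 to 90930873, 290 kb) lie Cxcl5, Ppbp, Pf4, Cxcl3, Cxcl15, Cxcl1 and Cxcl2, and 11 of the 13 peaks there were commonly lowered. Their differences ran from 1.19 to 2.76 with a median of 1.72. The 11 peaks together held 1018, 1033 and 720 reads in the Control libraries. RORgt-KO held 317 and 271, RORgt-Tbet-KO 369 and 402, RORgt-RORa-KO 267, 219 and 347, so that the deepest knockout library stayed below the shallowest Control.

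At the promoter of Cxcl3 (chromosome 5, 90785647 to 90786219) the log2 values were 7.32, 7.51 and 7.02 in Control, with RORgt-KO at 6.17 and 6.35, RORgt-Tbet-KO at 5.69 and 5.30, RORgt-RORa-KO at 5.94, 5.46 and 5.57. The difference was 1.48 (2.78-fold), and RORgt-KO stayed nearest to Control. A peak 1060 bp from Cxcl3 (90789153 to 90789606) differed more, by 2.26, with controls at 7.18, 7.04 and 6.65 and knockouts between 4.14 and 5.69. At the promoter of Cxcl2 (90902987 to 90903978) Control stood at 7.94, 7.44 and 7.77 and the knockouts at 6.45, 6.63, 6.44, 6.33, 6.32, 7.03 and 6.24 in the order of groups above, a difference of 1.23. The 3 knockout groups were within 0.16 of each other there, and RORgt-RORa-KO replicate 2 was the one library close to Control.

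The promoter of Cxcl1 (90891093 to 90891529) was weaker, at 5.23, 5.33 and 5.20 in Control and 3.14 to 4.97 in the knockouts, and RORgt-KO replicate 2 came within 0.23 of the lowest Control. The largest differences of the region lay upstream of Cxcl5, far from any promoter: 2.76 (6.75-fold) in a peak 39821 bp away (90718742 to 90719477) and 2.60 in one 44076 bp from Rassf6 (90684810 to 90685402). At the first, Control was 7.59, 7.75 and 7.28 and the knockouts 4.24 to 5.14, with both RORgt-KO libraries above the other knockouts. The 2 peaks outside the set were a weak one in Cxcl5 (90759491 to 90759535; difference 2.14, knockout span 1.96) and one 3105 bp from Cxcl2 (90909043 to 90909304), where the groups overlapped.

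All 3 peaks of Il1rn, which encodes the interleukin-1 receptor antagonist, were commonly lowered, by 2.29, 2.18 and 2.35. The middle one, 1140 bp from the gene (chromosome 2, 24335368 to 24335720), had 6.18, 6.50 and 5.72 in Control, with RORgt-KO at 3.87 and 3.97, RORgt-Tbet-KO at 4.23 and 3.65, RORgt-RORa-KO at 4.48, 3.82 and 3.65, with group means within 0.06. Il1rn was among 12 genes with at least 2 peaks that were all in the set. The others were Clmn, Calml3, Casp12, Cdcp1, Cxcl1, Cxcl3, Fam110b, Inhba, Sgcz, Slc7a11 and Tnn. Inhba encodes a subunit of activin A, a TGF-beta family cytokine. Its stronger peak (chromosome 13, 16011809 to 16012773) stood at 9.51, 9.55 and 9.25 in Control, with RORgt-KO at 8.41 and 8.45, RORgt-Tbet-KO at 8.24 and 8.28, RORgt-RORa-KO at 7.75, 7.77 and 7.40. All 3 peaks of Clmn, calmin, were lower by 1.77 to 2.54.

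Promoters were few but named. Of 1411 commonly lowered peaks on chromosomes with promoter sequences used here, 49 (3.47%) overlapped a promoter window, against 25.3% of all peaks. The share was 2.55% of the peaks higher alike and 2.22% of those lower with a wider knockout span. Of the windows at commonly lowered peaks, 34 belonged to 30 protein-coding genes. At Ptgs2, which encodes the prostaglandin-forming enzyme COX-2 (chromosome 1, 150099435 to 150100347), the values were 6.69, 6.80 and 6.72 in Control, with RORgt-KO at 5.37 and 5.51, RORgt-Tbet-KO at 5.58 and 5.68, RORgt-RORa-KO at 5.39, 5.57 and 5.27. The libraries of Ptgs2 fell into a Control band and a knockout band 1.02 apart, and RORgt-Tbet-KO was the highest of the knockouts by a small margin. At Tnip3 (chromosome 6, 65590090 to 65590443) the spread was wider: 7.0, 7.70 and 6.38 in Control, with RORgt-KO at 5.81 and 5.35, RORgt-Tbet-KO at 5.53 and 5.03, RORgt-RORa-KO at 4.48, 6.18 and 4.89. The difference was 1.68, but RORgt-RORa-KO replicate 2 came within 0.20 of Control replicate 3.

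Other promoters of the set were those of Fzd1, a Wnt receptor gene (lower by 1.92), Mycn, a MYC family factor gene, Rarb, a retinoic acid receptor gene (1.19), Lpcat2, a lipid mediator enzyme gene (1.55), Hrh1, a histamine receptor gene (1.63), Flt4, a VEGF receptor gene (1.43), and Rprm (1.52). Olfr175, an olfactory receptor gene, had the largest difference at a promoter (3.58), with 8.13, 8.57 and 7.62 in Control and 3.65 to 4.99 in the knockouts. Such receptor genes form a large family of like sequences, so reads there are uncertain. Inhba also counted, by a start inside the gene. The remaining 18 genes were Daw1, Steap3, Erich6, Med12l, Thsd7a, Ahcyl2, Asb5, Deup1, Syne1, Taar5, Col18a1, Gng4, F2rl2, Ube2e2, Cdh10, Dmd and the chemokine genes Cxcl1 and Cxcl2, lower by 1.01 (Erich6) to 1.94 (Deup1).

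A set of 14 motifs was counted in the 34 windows on both strands and set beside the 10115 protein-coding windows that overlap any peak. That NF-kB motif was in 11 of 34 (32.4%) against 27.2%, and TGTGGT, the core bound by RUNX factors, in 9 (26.5%) against 12.0%. The ETS motif AGGAAGT was in 6 (17.6%) against 8.85%. The nuclear receptor site AGGTCA was in 4 (11.8%) against 11.1%, and its longer form TAGGTCA, the core of a ROR element, which always contains AGGTCA, in 0 against 1.70%. GATA factors' AGATAA was in 5 (14.7%) against 5.16%, the AP-1 motif TGANTCA in 3 (8.82%) against 4.26% and the T-box motif AGGTGNGA in 0 against 4.70%. Others were below their share: the CTCF core AGGNGGC in 11 (32.4%) against 42.1%, the AHR motif TNGCGTG in 1 (2.94%) against 8.84%, the clock E-box CACGTG in 2 (5.88%) against 10.9% and the STAT motif TTCNNNGAA in 2 (5.88%) against 6.42%. The TCF/LEF motif CTTTGA was in 5 (14.7%) against 11.0% and the E protein motif CAGCTG in 6 (17.6%) against 13.7%. With 34 windows these shares rest on a few promoters, and most commonly lowered peaks have no sequence used here. Daw1, Deup1, Gng4 and Ube2e2 entered with more than 1 window each, so a match can count again. Some windows overlap their peak by few bases, as at Cdh10 (21), so a match may lie outside the peak.

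The peak with the largest difference of all, named after its value was seen, over 229 kb from any protein-coding gene (chromosome 4, 13210799 to 13211326), stood at 7.99, 8.20 and 7.33 in Control and 2.48 to 4.52 in the knockouts. Among peaks with a gene within 50 kb, one 2780 bp from Ear14 led (chromosome 14, 51200258 to 51200915; lower by 3.95, 15.5-fold), with Control at 7.87, 8.07 and 7.75 and knockouts at 2.72 to 4.65. Ear14 belongs to a family of near-identical ribonuclease genes, so its reads are uncertain. One in Ptprk, a receptor tyrosine phosphatase gene (chromosome 10, 28193487 to 28193983), followed with a difference of 3.94, at 7.97, 8.42 and 7.58 in Control and 3.08 to 5.01 in the knockouts. Control and knockouts were 3.10 apart at the Ear14 peak and 2.58 at the Ptprk peak, and at both RORgt-Tbet-KO replicate 1 was the lowest library.

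The next were peaks at Mcub (3.91), ccdc198 (3.77), Fhit (3.77), Cdc73 (3.71), Olfr175 (3.58), Tmc1 (3.55), Bicd1 (3.48), Plxna2 (3.47), Phactr3 (3.40), Ppp1r17 (3.39), Slc9c1 (3.38), Alg14 (3.38) and Serpinb10 (3.36). The strongest of them in Control, in the sodium-proton exchanger family gene Slc9c1 (chromosome 16, 45561076 to 45562435), had 9.59, 9.89 and 9.32 there and 5.53 to 6.74 in the knockouts. The weakest, in Ppp1r17, rested on few reads, with 4.37, 4.76 and 4.92 in Control and -0.31 to 2.81 in the knockouts, where the lowest value is that of a library with 0 reads. Ends of genes with large differences besides Olfr175 were those of Mrps28 (2.89), Hsd17b13 (2.76), Slc22a8 (2.69) and Cln8 (2.47). Cdkal1 had 6 commonly lowered peaks of 13, the most of any gene, lower by 1.12 to 2.72. Arid1b had 4 of 20, Lpp 4 of 29, Med12l 4 of 18 and Sncaip 4 of 6. Long genes with many peaks have more chances to be counted.

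At signature genes of ILC3s the share in the set was near that of all genes. Of 88 peaks at 17 type 3 effector and receptor genes, 4 (4.55%) were commonly lowered, against 3.59% of all peaks with a gene. They lay at Maf, Il1r1, Il23r and Csf2. A further 12 (13.6%, against 3.20%) met the limits on overlap and on the difference of means, but had knockout group means 0.8 or more apart. Among those were the peaks with the largest difference at Il17a (3.17, span 1.00), Il17f (2.19, span 1.72), Il22 (1.94, span 0.84), Tnfsf11 (2.28, span 0.99) and Ccl20 (1.75, span 1.43), which encode interleukin-17A, interleukin-17F, interleukin-22, RANKL and the CCR6 ligand. Apart from the Il17f peak, these lay away from the genes: 44632 bp from Il17a, 13890 bp from Il22, 22832 bp from Tnfsf11 and 18712 bp from Ccl20. At Il17f (chromosome 1, 20784151 to 20784670) Control had 7.77, 8.07 and 7.64, RORgt-KO 5.71 and 6.32, RORgt-Tbet-KO 6.29 and 6.33, RORgt-RORa-KO 4.39, 4.52 and 4.84. The RORgt-RORa-KO libraries lay apart below the other knockouts at Il17f.

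A peak 27042 bp from Maf, which encodes the factor c-MAF (chromosome 8, 115733936 to 115734260), had 6.33, 5.69 and 5.14 in Control. RORgt-KO had 3.45 and 2.97, RORgt-Tbet-KO 3.50 and 3.20, RORgt-RORa-KO 3.48, 3.14 and 1.84, a difference of 2.59 (6.02-fold). A peak in Il1r1, the interleukin-1 receptor by which ILC3s sense myeloid cells (chromosome 1, 40279247 to 40279575), had 6.48, 6.18 and 6.61 in Control, with RORgt-KO at 4.09 and 5.17, RORgt-Tbet-KO at 3.82 and 4.95, RORgt-RORa-KO at 4.19, 3.99 and 4.65. Here replicates of RORgt-KO and RORgt-Tbet-KO were over 1 apart from each other, more than the groups were. The peak in Il23r, the interleukin-23 receptor (lower by 1.05), and the one 22518 bp from Csf2, which encodes GM-CSF (1.02), were near the limit of the rule.

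Of 24 lymphocyte factor genes with 236 peaks, 6 peaks (2.54%) at 4 genes were in the set, beside 3.59% of all peaks with a gene. Higher alike in the knockouts were 12 of the 236, a larger share than the 1022 of 32579 among all peaks with a gene. The share in the set was thus no higher than the background. Tox, an HMG-box factor gene of ILC development, had 3, the largest 2.59 lower (chromosome 4, 6846049 to 6846296; 5.69, 6.18 and 5.43 in Control, 2.23 to 3.99 in the knockouts). A peak 28309 bp from Prdm1, which encodes Blimp-1, was 2.14 lower, one in Bach2, a repressor of effector programmes, 1.55 lower, and Lef1 had 1 peak in the set. Among 12 genes with a peak that mark lymphoid tissue inducer cells, Tox and Cd83 (1.37) had members, 4 of 88 peaks. A peak 19030 bp from the clock repressor gene Bhlhe40 (chromosome 6, 108685955 to 108686609) was the only one of 45 at clock genes, at 8.83, 8.68 and 8.57 in Control, with RORgt-KO at 7.42 and 7.06, RORgt-Tbet-KO at 7.0 and 6.85, RORgt-RORa-KO at 7.32, 7.29 and 7.01. The replicates of Bhlhe40 were tight, and its groups lay 1.14 apart.

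Type 1 and cytotoxic genes gave 1 of 87 peaks, in Cd226 (1.13), and type 2 genes 1 of 30, 28098 bp from Arg1, arginase 1 (1.54). Among homing genes, a peak at S1pr1, the receptor for exit from tissue, was in the set (chromosome 3, 115714720 to 115715952; 9.29, 9.43 and 9.07 in Control, 7.68 to 8.63 in the knockouts). Immediate early genes gave 3 of 77, at Dusp1 (2.26), Nr4a2 (1.04) and Fosl2 (1.02), and cytokine receptor and JAK-STAT genes 2 of 85, in Il6st (1.73) and near Socs2 (1.39). The 52 peaks at 9 pan-ILC genes, among them Il7r, Thy1 and Kit, and the 12 at AHR pathway genes gave 0. All 9 pan-ILC genes had peaks, which held 140 to 144 of every 100000 reads in the Control libraries and 149 to 186 in the knockouts. Housekeeping genes gave 1 of 31, near Ywhaz (1.19). Over all lists 27 of 902 peaks (2.99%) at 24 of 192 genes were in the set, a share near that of all peaks with a gene (3.59%).

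**Figure D5:**
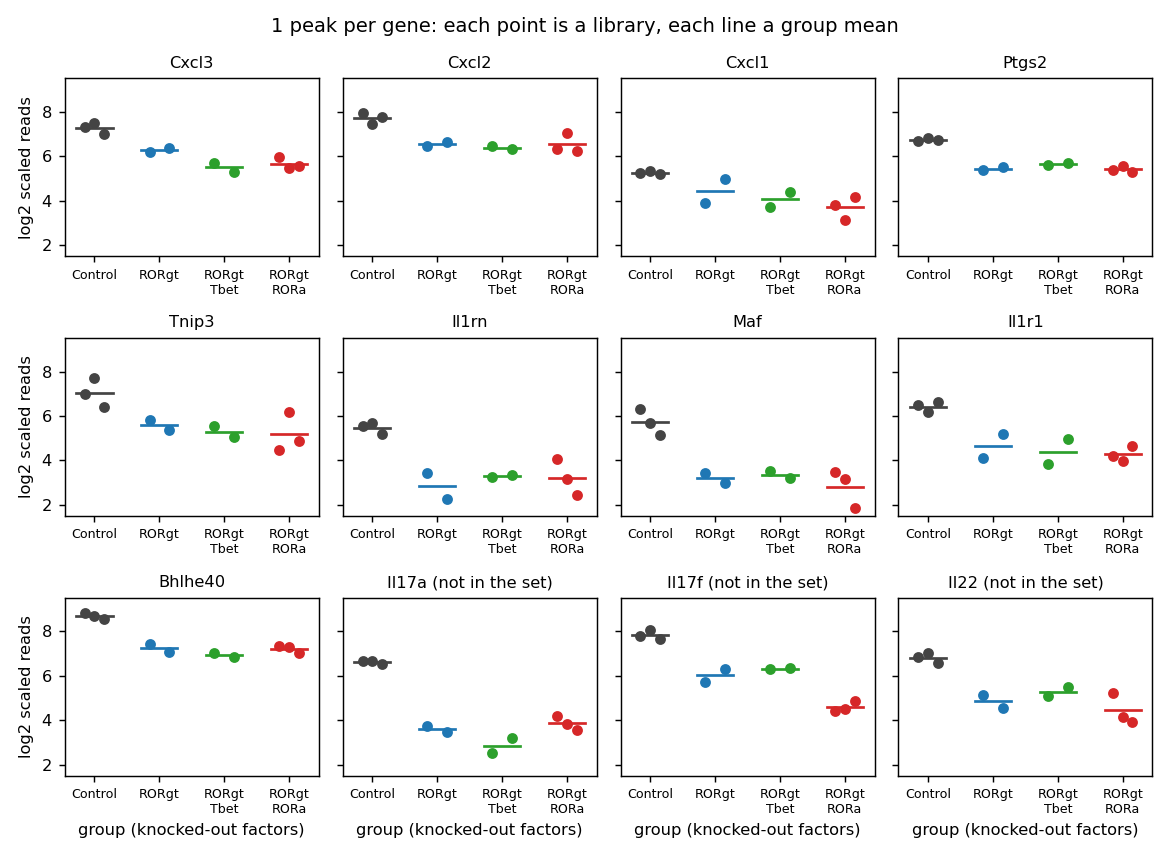
Log2 scaled reads (y axis) by group (x axis) for 1 peak at each of 12 genes, where each point is a library and each line a group mean. In the first 9 panels the 3 knockout means lie within 0.8 of each other, and in the last 3 (Il17a, Il17f and Il22, not in the set) they span 1.00, 1.72 and 0.84.

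Markers of other cell types were checked in the same peaks. Among B cell markers, Blk, Ebf1, Pax5 and Cr2 were the nearest gene of 13 peaks, while Cd79a, Cd79b and Ms4a1 were the nearest gene of none. Of the 13, 4 were commonly lowered: 1 in Pax5 (1.51), 1 in Ebf1 (2.17) and 2 in Blk (1.55 and 1.01). The Pax5 peak (chromosome 4, 44672124 to 44672873) stood at 6.94, 7.19 and 7.23 in Control and 4.75 to 6.14 in the knockouts, while the other 3 peaks of Pax5 were higher in the knockouts by 0.59 to 0.81 on average (differences of -0.76, -0.59 and -0.81). Of every 100000 reads, the 13 peaks held 24.6 to 28.5 in Control, 16.7 to 17.3 in RORgt-KO, 16.9 to 20.1 in RORgt-Tbet-KO; in RORgt-RORa-KO they held 13.9 to 17.5. The summed share of the 13 peaks was thus lower in every knockout library. That sum includes the 4 peaks chosen for being lower, so it in part repeats the choice. Of the peaks not chosen, those of Ebf1 (0.74), Cr2 (0.75) and Blk (0.57, 2.60 and 0.51) were lower on average. The last Blk peak (-0.04) and the other 3 of Pax5 were not. Among myeloid markers, which bear on the chemokine genes, Spi1, Cebpa, Itgam and Cd14 had 6 peaks, and 0 were in the set. They held 7.95 to 9.46 of every 100000 reads in Control and 8.73 to 11.4 in the knockouts. By peak the direction was mixed. On average 1 Spi1 peak and the Itgam peak were higher in the knockouts (Control minus knockout -0.85 and -0.52). The other Spi1 peak (0.42), both Cebpa peaks (0.33 and 0.40) and the Cd14 peak (0.07) were lower. The median over all 6 peaks was 0.20. Lyz2, Cd68, Csf1r and Itgax were the nearest gene of no peak. T cell markers gave 1 of 14, in Cd247 (1.42), with 29.4 to 32.9 of every 100000 reads in Control and 27.8 to 36.4 in the knockouts. Epithelial markers (9 peaks) gave 0, with 15.9 to 18.5 of every 100000 reads in Control, 23.3 to 23.6 in RORgt-KO, 20.6 to 21.6 in RORgt-Tbet-KO; RORgt-RORa-KO had 18.4 to 20.7. Stromal and endothelial markers (15 peaks) gave 0, with 21.5 to 24.9 in Control, 23.4 to 24.4 in RORgt-KO, 30.6 to 31.6 in RORgt-Tbet-KO; RORgt-RORa-KO had 25.2 to 28.5. Their part in the commonly lowered peaks was not tested.

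No commonly lowered peak had Rora or Tbx21 as its nearest gene, and which exons were flanked was not known here, so peaks at these genes do not check the deletion.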

How the data were processed

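Reads were trimmed with Trim Galore 0.62, aligned with Bowtie2 2.3.5.1 to GRCm38 and filtered with SAMtools, and peaks were called with MACS2, per the submitters' processing notes. The authors deposited 1 table of log2 scaled read counts per peak for 10 libraries. Peak merging and the origin of the scaling factor were not stated in these notes. Raised to the power of 2, each library's values were whole multiples of 1 step (tolerance 0.01), with empty peaks at 0.9 of it, which gave back the reads. The 11 peaks on Y were left out.

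The rule was applied in Python 3.11.15. Each peak was named after the nearest RefSeq protein-coding gene (GRCm38.p6) within 50 kb of the gene body; 10 peaks of the set were equally near to several genes, and the first by position was taken. Positions are as in the file. Counts of calls come from limma 3.58.1 (R 4.3.3) fitted to the 4 groups together, allowing for a trend of variance with level (6 residual, 22.5 prior degrees of freedom), tested on simulated data. Named genes are the 15 largest differences, up to 3 peaks from each of 17 lists (222 genes), the 5 genes with most peaks, the 5 largest at gene ends and peaks near the limits; the chemokine region, promoters, Il1rn, genes with all peaks in the set and markers were singled out after their values were seen. Checks of marker lists by reads were added later. The peaks and lists were chosen with earlier results of these data known. Promoter sequences were not used for chromosome 18. Some items are not reported here.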

Additional observations from a re-analysis of the deposited data

How the results depend on the processing

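The number of peaks depended most on the limits of the rule. It was 773 with knockout means within 0.5, 2242 within 1.2 and 823 with a difference of at least 1.5, beside 1482. It was 1397 with each library centred on its median (1360 shared) and 1413 after quantile normalization (1264 shared), and ran from 1266 to 1856 when single libraries were left out. The share of chosen peaks in which a left-out library lay on the side of its group was 95.2%. It was 30.1% over all peaks, which is not a matched background, since the compared libraries took part in the choice. The median difference was -1.45 in RORgt-KO after centring and -1.46 in RORgt-Tbet-KO after quantile normalization. Gene ends held 8.3% of the peaks within 2 kb and 3.91% within 0.5 kb, against 34.2% and 26.9% of all peaks, which follows from the distances. With genes taken within 10 kb, 13 genes of the lists had a peak in the set in place of 24. When single libraries were left out, limma called 555 to 1033 of the peaks in RORgt-KO (3.27% to 7.61% of all peaks), 701 to 1179 in RORgt-Tbet-KO (4.97% to 12.4%) and 1208 to 1374 in RORgt-RORa-KO (12.3% to 16.8%). A group left with 1 library was then assumed to vary like the others. With the replicate number as a block, limma called 1173, 1288 and 1402, beside 8.79%, 13.9% and 16.9% of all peaks. The labels do not say that the numbers mark a shared batch. Correlations of deviations between same-numbered libraries of Control and RORgt-RORa-KO were -0.0482, 0.143 and 0.0107, not all over 0.1, so the numbers were not taken as pairs. Motifs in whole peaks and in 200 bases around peak centres were not run, since they need a genome sequence. Depth limits weak peaks: a commonly lowered peak held as few as 5 reads in a Control library, and 1462 of the 1482 held at least 10 in each.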
